A study of Homo sapiens with 4 samples.

Results

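ADGRG1, also called GPR56, is 1 of 12300 genes with an alternative splicing event in long-read libraries of cells labelled Huh7, a hepatocellular carcinoma line. It was identified by its Ensembl gene number, ENSG00000205336. All 1289 of its distinct events were examined, out of 287868 distinct events of all genes. The gene was picked because of how its events differed between the groups, so its own numbers are described here and carry no test. Cells of the siSTAMBPL1 group (2 libraries) were transfected with an siRNA against STAMBPL1, a deubiquitinase. Cells of the siNC group (2 libraries) were transfected with a negative control siRNA. Both groups received the same lipid transfection reagent and grew in the same medium with serum. The labels do not say whether the libraries of a group came from separate cultures, so p-values measure only the spread between these libraries.

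The adhesion receptor encoded by ADGRG1 has a long extracellular part that is cut from the membrane-spanning part by the receptor itself. Collagen III and transglutaminase 2 bind that extracellular part, and the receptor signals mainly through the G12/13 proteins to RhoA. It is best known for its part in the development of the cerebral cortex and in cytotoxic lymphocytes, and it is expressed in many tumours. Its transcripts begin at several first exons upstream of a shared coding region, so a first exon can point to the promoter used. Whether the start of a long-read transcript is its true 5' end was not tested here.

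Each library is a list of events. An event names 2 ways to splice the same stretch of a gene and the transcripts that carry each, with no read number or other quantity. The transcripts are Ensembl transcripts or transcripts assembled from the long reads, whose names begin with PB. An event was taken as listed when at least 1 of its transcripts had been found in the library. The lists held 119505 and 94432 events in siSTAMBPL1 replicates 1 and 2, against 140317 and 142215 in siNC replicates 1 and 2. PB transcripts numbered 25463 and 17584 in the siSTAMBPL1 libraries and 32307 and 32750 in the siNC libraries. They stand in for depth, which is unknown. STAMBPL1 itself had 1 and 1 events in the siSTAMBPL1 libraries and 3 and 6 in the siNC libraries. The log2 difference for STAMBPL1 was -1.14 ± 0.473 (SE, n = 2 each; limma adjusted p 0.753). Of 9 hepatocyte markers, only HNF4A was matched to a gene with an event. It had 0 and 4 events in the siSTAMBPL1 libraries and 8 and 6 in the siNC libraries. The epithelial keratins KRT8 and KRT18 had events in every library. None of the 5 lymphocyte markers was matched to a gene with an event, and of 3 neural markers only PAX6 was. Symbols were matched by position for 90.2% of Ensembl genes with an event, so an unmatched marker may have events that were not assigned. A gene without an event may still be expressed.

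ADGRG1 lies on the forward strand of chromosome 16, from 57619738 to 57665567 in the RefSeq annotation of GRCh38.p14, the assembly of hg38. RefSeq's promoter table gives 3 start sites, at 57619738, 57620046 and 57628630. The first and second lie 8892 and 8584 bases upstream of the third. The sequences, from RefSeq's table for GRCh38.p14, are shown because long-read transcripts begin at or near all 3. Bases at which a PB transcript of any library began are in capitals, and each sequence ends 30 bases after the RefSeq start.
RefSeq start 1, chr16:57619638-57619768, forward strand: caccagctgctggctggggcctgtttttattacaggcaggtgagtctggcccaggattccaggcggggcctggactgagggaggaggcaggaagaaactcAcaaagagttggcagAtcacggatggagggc
RefSeq start 2, chr16:57619946-57620076, forward strand: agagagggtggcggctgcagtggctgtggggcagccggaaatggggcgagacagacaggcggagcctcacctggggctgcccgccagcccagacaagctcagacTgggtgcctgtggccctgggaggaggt
RefSeq start 3, chr16:57628380-57628660, forward strand: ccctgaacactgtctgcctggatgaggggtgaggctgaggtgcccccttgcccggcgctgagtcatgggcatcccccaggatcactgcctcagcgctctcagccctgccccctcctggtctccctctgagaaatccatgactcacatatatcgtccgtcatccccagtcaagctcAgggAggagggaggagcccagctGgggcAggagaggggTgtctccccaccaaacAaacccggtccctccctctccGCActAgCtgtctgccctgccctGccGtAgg
The third window held the starts of 23 PB transcripts at 14 different bases. The first held 4 transcripts at 2 bases and the second held 1. In the third window no start lay more than 75 bases before the RefSeq start, and 13 transcripts began at 4 bases from the RefSeq start to 5 bases after it.

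Windows of 300 bases, from 250 before to 50 after each RefSeq start, were searched for 4 motifs on both strands, chosen after the sequence had been seen. The AP-1 motif TGANTCA, which is its own reverse complement apart from the open base, occurred 2 times in the third window, 192 and 113 bases before the start. It occurred in neither other ADGRG1 window. Of 35116 RefSeq windows, 7.71% held it at least once and 0.515% held it at 2 or more places. None of the 3 ADGRG1 windows held the other motifs. Of all windows, 11.5% held the TATA motif (letters TATAAA), 34.6% the motif named CCAAT, and 45.0% the GC box, spelled GGGCGG. The G and C content of the 3 windows was 59.7%, 66.0% and 64.3%, against a median of 58.7% over all windows. A motif match describes letters and is not evidence of binding.

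Most long-read ADGRG1 transcripts began at the third start site in both groups. Of the PB transcripts whose first splice donor was known, 12 of 16 and 6 of 9 used it in siSTAMBPL1 replicates 1 and 2, and 8 of 12 and 12 of 19 in siNC replicates 1 and 2. These shares are 75.0% (exact Clopper-Pearson 95% interval 47.6 to 92.7) and 66.7% (29.9 to 92.5) in the siSTAMBPL1 libraries. They are 66.7% (34.9 to 90.1) and 63.2% (38.4 to 83.7) in the siNC libraries. Means were 70.8% ± 5.89 in siSTAMBPL1 and 64.9% ± 2.48 in siNC (SD, n = 2 each), and the second siSTAMBPL1 library equalled the first siNC library. All 4 intervals overlap. They cover counting error only, and a PB transcript is a distinct transcript model and not a read.

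Starts at the third site were spread out. The 36 PB transcripts of this region with a known start began at 21 different bases, from 57628555 to 57628697, a span of 143 bases. Relative to the RefSeq start, 6 began upstream, 2 exactly at it and 28 downstream, and 24 lay within 50 bases of it. In siSTAMBPL1 replicate 1, starts ran from 71 bases upstream to 67 downstream with a median of 7 downstream. Those of siSTAMBPL1 replicate 2 ran from 75 upstream to 65 downstream with a median of 23. In siNC replicate 1, they ran from 37 upstream to 65 downstream with a median of 15.5, and in siNC replicate 2 from the RefSeq base itself to 63 downstream with a median of 5. Upstream starts thus numbered 4 of 11 and 1 of 6 in the siSTAMBPL1 libraries, against 1 of 8 and 0 of 11 in the siNC libraries. Among PB transcripts the siSTAMBPL1 libraries reached farther upstream, but the difference rests on 6 transcripts. Ensembl transcripts, judged by which events were listed, did not all go the same way. ENST00000388813, annotated from 57628555, must have been found in both siNC libraries and cannot have been found in siSTAMBPL1. ENST00000456916, annotated from 57628507, must have been found in siSTAMBPL1 replicate 1 and in no other library.

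**Figure D1:**
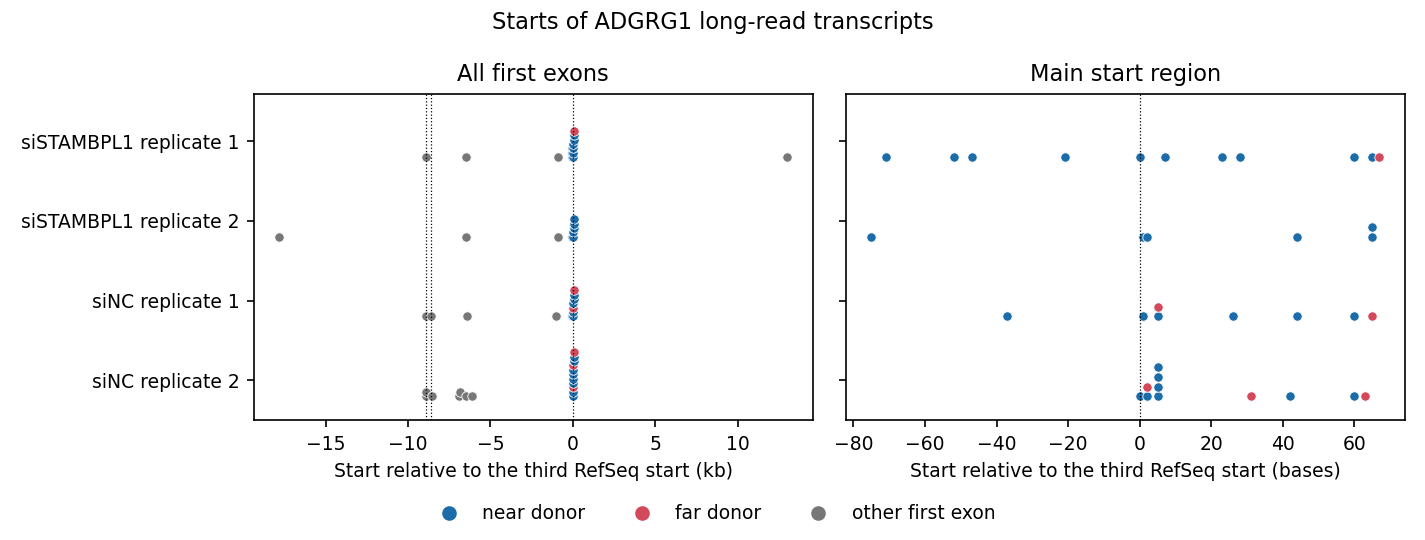
Starts of ADGRG1 PB transcripts in the 4 libraries, as distance from the third RefSeq start in kb (left, all first exons) and in bases (right, the main start region). Each point is 1 transcript, points at like positions are stacked, dotted lines mark RefSeq starts, and colours mark the first splice donor; the near donor (57628802) has 11, 6, 6 and 9 transcripts in siSTAMBPL1 replicates 1 and 2 and siNC replicates 1 and 2, those without a known start included.

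First exons from the third site ended at either of 2 donors, 57628802 and 57628828, which are 26 bases apart. The nearer donor was used by 11 and 6 PB transcripts in the siSTAMBPL1 libraries and by 6 and 9 in the siNC libraries. The farther donor was used by 1 of 16 and 0 of 9 PB transcripts in the siSTAMBPL1 libraries, and by 2 of 12 and 3 of 19 in the siNC libraries. As shares these are 6.25% and 0% in siSTAMBPL1, against 16.7% and 15.8% in siNC. A count of 0 of 9 allows a share of up to 33.3% (a limit of 3 counts), so a difference was not detectable at this depth. The single siSTAMBPL1 transcript with the farther donor joined the early acceptor of the next exon, at 57641587. The 5 siNC transcripts joined the usual acceptor at 57641591 (3 transcripts) or passed to 57650253 (2 transcripts).

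Upstream of the third site, PB transcripts began at several separate places. Together these upstream first exons were used by 3 of 16 and 3 of 9 PB transcripts in the siSTAMBPL1 libraries and by 4 of 12 and 7 of 19 in the siNC libraries. The 7 of siNC replicate 2 include 2 that began inside an exon internal to Ensembl transcripts (57621691 to 57621845). PB transcripts at the first RefSeq start, with the donor 57619881, numbered 1 and 0 in the siSTAMBPL1 libraries and 1 and 2 in the siNC libraries. PB transcripts at the second RefSeq start, with the donor 57620136, were listed in the siNC libraries only, 1 in each. An Ensembl transcript with that donor, ENST00000568908, must nevertheless have been found in siSTAMBPL1 replicate 1 as well as in both siNC libraries. ENST00000568908 begins at 57619942, before the second RefSeq start, so the donor and not the start was found outside siNC.

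Between the second and the third RefSeq starts lay first exons that match none of the 3 windows. A first exon with the donor 57622583 occurred in all 4 libraries, in 1 and 1 PB transcripts of siSTAMBPL1 and 1 and 2 of siNC, and no Ensembl first exon on the lists has that donor. Its 5 transcripts began at 5 different bases between 57622166 and 57622485. A first exon with the donor 57627767, shortly before the third start, was in 1 and 1 PB transcripts of siSTAMBPL1 and 1 and 0 of siNC. The donor 57621845 was used by 2 PB transcripts, both in siNC replicate 2. They began at 57621728 and 57621774, inside an exon (57621691 to 57621845) that Ensembl transcripts join after the donor 57620136. In siSTAMBPL1 replicate 2, 1 transcript began at 57610823, which is 8915 bases before the RefSeq gene, and spliced from 57610912 into the second exon. In siSTAMBPL1 replicate 1, 1 began at 57641628, inside the second exon. The donor 57639670, downstream of the third start, had no PB transcript, but its Ensembl transcript ENST00000540164 must have been found in siSTAMBPL1 replicate 1 and in both siNC libraries.

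Exact starts seldom recurred. Of 40 distinct PB first exons, defined by start and donor, 32 were in 1 library, 7 in 2, 1 in 3 and 0 in all 4. The 1 in 3 libraries ran from 57628690 to 57628802. Only 6 of the 40 had the same start and donor as an Ensembl first exon. With starts within 100 bases at the same donor taken as 1, there were 10 first exons, and by donor alone there were 9. The number of ADGRG1 first exons thus depends mainly on how starts are grouped.

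After the first exon, transcripts either joined a 118-base second exon (57641591 to 57641708) or passed over it to the third exon of 99 bases, which begins at 57650253. The second exon was joined by 10 of 15 and 8 of 9 PB transcripts in the siSTAMBPL1 libraries, and by 8 of 12 and 10 of 18 in the siNC libraries. These are 66.7% (exact 95% interval 38.4 to 88.2) and 88.9% (51.8 to 99.7) in siSTAMBPL1, against 66.7% (34.9 to 90.1) and 55.6% (30.8 to 78.5) in siNC. Means were 77.8% ± 15.7 in siSTAMBPL1 and 61.1% ± 7.86 in siNC (SD, n = 2 each). The 15 transcripts of siSTAMBPL1 replicate 1 include 1 that begins inside the second exon, and without it 10 of 14 (71.4%) joined that exon. An acceptor 4 bases earlier was used for the second exon in 2 and 2 PB transcripts of siSTAMBPL1 and 1 and 1 of siNC. Extra exons between the first and second were rare, with 1 PB transcript in siSTAMBPL1 replicate 1 (acceptor 57634026) and 1 in siNC replicate 2 (acceptor 57636736).

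The third exon was followed by a choice of acceptors, and the same one led in every library. The acceptor 57651200 was used by 10 of 16 and 5 of 9 PB transcripts in the siSTAMBPL1 libraries and by 10 of 12 and 12 of 19 in the siNC libraries. An acceptor 43 bases later was used by 2 and 2 in siSTAMBPL1 and 2 and 4 in siNC. One 15 bases earlier was used by 2 and 2 in siSTAMBPL1 and 0 and 3 in siNC. Another, 156 bases later, was used by 2 PB transcripts of siSTAMBPL1 replicate 1 and by none in the other libraries.

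Farther into the gene, a pair of acceptors 18 bases apart (57659395 and 57659413) was used almost evenly. The later one was used by 6 of 16 and 5 of 9 PB transcripts in the siSTAMBPL1 libraries and by 7 of 14 and 9 of 19 in the siNC libraries. Group means were 46.5% ± 12.8 in siSTAMBPL1 and 48.7% ± 1.86 in siNC (SD, n = 2 each), and the siNC values lay between the siSTAMBPL1 values. At the 3' end, PB transcripts used the acceptor 57663452 in 16 of 16 and 9 of 9 cases in siSTAMBPL1 and in 15 of 15 and 19 of 19 in siNC. The alternative acceptor 1442 bases later was carried by Ensembl transcripts alone.

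**Figure D2:**
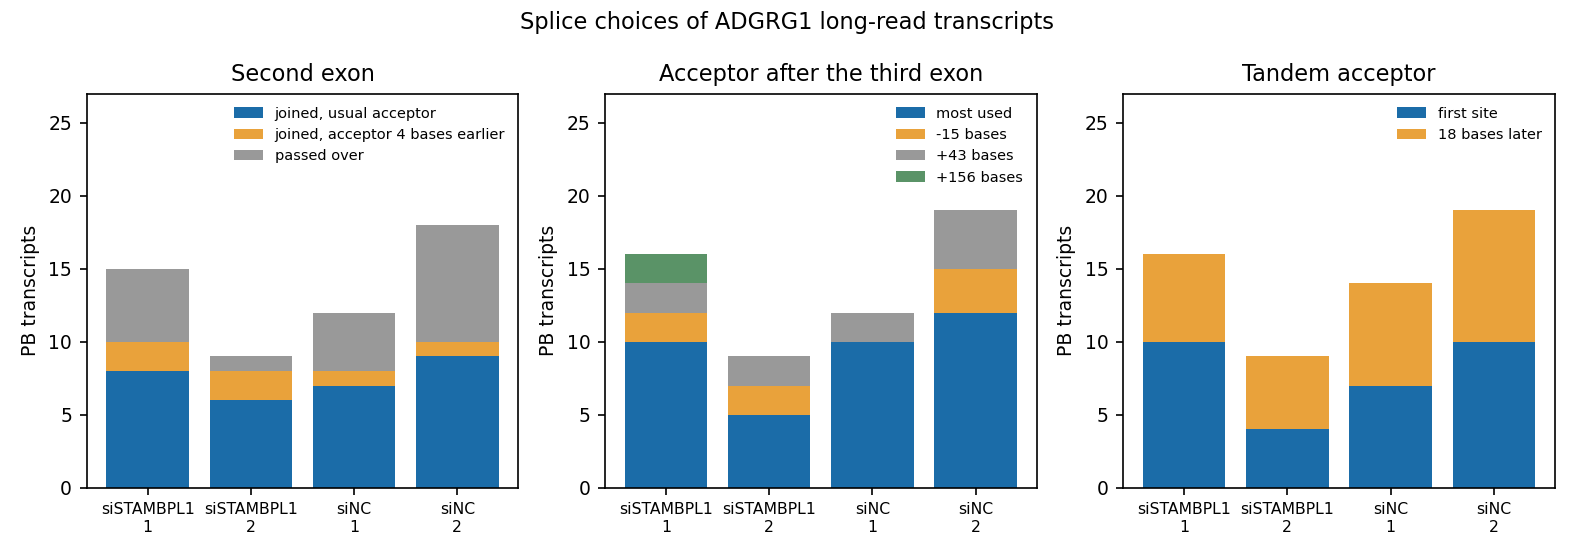
PB transcripts of ADGRG1 by splice choice (y axis, number of transcripts) in the 4 libraries: joining of the second exon, the acceptor after the third exon (distance from the most used one), and the pair of acceptors 18 bases apart. Bars stack the choices; the 5 transcripts that pass over the second exon in siSTAMBPL1 replicate 1 include 1 that begins inside it, and the same acceptor after the third exon leads in all 4 libraries.

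The choices were combined in many ways. The first donor, the next acceptor, the acceptor after the third exon and the paired acceptor were all known for 54 PB transcripts, which formed 34 combinations. Of these, 23 were in 1 library, 9 in 2 and 2 in all 4. The 2 shared by all libraries both ran from the donor 57628802 to the second exon at 57641591 and the acceptor 57651200, and differed only in the paired acceptor. They accounted for 7 PB transcripts with the earlier site and 5 with the later one. Both patterns common to the 4 libraries thus joined the main start to the second exon.

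ADGRG1 was among the genes with the most events in every library. It had 499 and 266 events in siSTAMBPL1 replicates 1 and 2, and 429 and 572 in siNC replicates 1 and 2. By number of events it ranked 1 and 4 in the siSTAMBPL1 libraries and 3 and 2 in the siNC libraries. The groups overlapped, since the first siSTAMBPL1 library lay between the siNC libraries. Means were 382.5 ± 165 in siSTAMBPL1 and 500.5 ± 101 in siNC (SD, n = 2 each), a ratio of 0.764. Per 1000 events of the library, ADGRG1 had 4.18 and 2.82 in siSTAMBPL1 and 3.06 and 4.02 in siNC, and the ratio after scaling by library events was 0.988. Its PB transcripts numbered 17 and 9 in siSTAMBPL1 and 15 and 19 in siNC. Events per PB transcript were nearly the same in the 4 libraries, at 29.4 and 29.6 in siSTAMBPL1 and 28.6 and 30.1 in siNC.

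Nearly all events were alternative first exons. They numbered 456 and 241 in the siSTAMBPL1 libraries and 393 and 532 in the siNC libraries. They made up 91.4% and 90.6% of ADGRG1 events in siSTAMBPL1 and 91.6% and 93.0% in siNC. Over all genes, first exons made up 39.3% and 37.0% of events in siSTAMBPL1 and 40.7% and 41.1% in siNC. High first exon shares were not particular to ADGRG1. GNAS, compared below, had 444 of 466 and 355 of 375 in siSTAMBPL1, and 359 of 381 and 492 of 515 in siNC. HNRNPK had 313 of 340 and 189 of 218 in siSTAMBPL1, and 206 of 235 and 387 of 430 in siNC. PVT1 had lower shares, with 264 of 399 and 157 of 228 in siSTAMBPL1, and 221 of 324 and 295 of 402 in siNC. The ADGRG1 shares differed by -1.32 percentage points between the group means (siSTAMBPL1 minus siNC), with both siSTAMBPL1 values below both siNC values. A first exon event pairs 2 first exons that join the same next acceptor, so 1 transcript adds a pair with every other first exon there. The 48 PB transcripts that joined the usual second exon acceptor or the third exon each stood in 23 to 35 first exon events. The 6 that joined the early acceptor stood in 5 to 7. A number of events thus counts pairs of first exons and is not a level of the gene.

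Other event types were few. Alternative 3' splice sites numbered 24 and 16 in siSTAMBPL1 and 16 and 20 in siNC. Skipped exons numbered 9 and 4 in siSTAMBPL1 and 12 and 13 in siNC. Over all genes, skipped exons made up 24.7% and 26.9% of events in siSTAMBPL1 and 23.5% and 23.4% in siNC. Alternative 5' splice sites numbered 5 and 4 in siSTAMBPL1 and 5 and 5 in siNC. Retained introns numbered 3 and 0 in siSTAMBPL1 and 1 and 0 in siNC. The intron from 57660877 to 57661696 was retained in 1 PB transcript of siSTAMBPL1 replicate 1 and 1 of siNC replicate 1, beside 16 in siSTAMBPL1 replicate 1 and 14 in siNC replicate 1 that spliced it. In siSTAMBPL1 replicate 1, 3 PB transcripts retained the intron from 57663780 to 57664552 and 1 spliced it. That count covers only transcripts with the event's outer exon ends, whereas 16 PB transcripts of this library used the acceptor 57663452 before that intron. In the same library, 1 retained the intron from 57651623 to 57653202 and 9 spliced it, again among transcripts with the event's outer exon ends.

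Most ADGRG1 events were seen once. Of the 1289 distinct events, 1004 (77.9%) were in 1 library and 66 (5.12%) in all 4. Over all genes, 66.1% were in 1 library and 16.0% in all 4. Outside first exons, 13 of 26 alternative 3' splice sites and 4 of 6 alternative 5' splice sites were in all 4 libraries, but only 2 of 19 skipped exons and 0 of 3 retained introns. First exons gave 46 of 1233.

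Events listed in both libraries of one group and in neither of the other were 1 for siSTAMBPL1 and 71 for siNC. That is 0.0776% of ADGRG1 events for siSTAMBPL1, where the share over all genes was 1.09%. For siNC it is 5.51%, where the share over all genes was 3.44%. These counts chose the gene, so nothing further is read from them. They also rest on exact coordinates. With every coordinate allowed to differ by up to 10 bases, and starting from the events of the first library of each group, 53 events of 499 (10.6%) were in both siSTAMBPL1 libraries only and 48 of 429 (11.2%) in both siNC libraries only. The shares over all genes by that rule were 2.81% for siSTAMBPL1 and 7.8% for siNC. Within 10 bases the shares of both groups were nearly equal, mainly because the siSTAMBPL1 count was 53 and not 1. Each lay above its share over all genes, the siSTAMBPL1 share by more. These counts too are only described.

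The 53 siSTAMBPL1 events trace to a few transcripts. In siSTAMBPL1 replicate 1, 31 of them held the PB transcript that begins at 57622168 and passes from the donor 57622583 to the third exon. The matching transcript of siSTAMBPL1 replicate 2 begins at 57622175, which is 7 bases away. With some overlap, 23 held the transcript that begins at 57628559 at the third start site, whose match in siSTAMBPL1 replicate 2 begins at 57628555. No siNC transcript with the same junctions began within 10 bases of either. The first exon itself was found in siNC: a transcript of siNC replicate 2 began at 57622166 with the donor 57622583, but joined the second exon at 57641587. Another of that library passed from this donor to the third exon and began at 57622485.

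Each of the 71 siNC events held at least 1 of 4 annotated first exons, picked so as to cover them all. All 71 had Ensembl transcripts in both forms. First exons of other donors were in these events too, such as those of the donor 57639670 in 13. The first exon of ENST00000564912 (57619738 to 57619881, at the first RefSeq start), joined to the third exon, was in 25. A PB transcript with that first exon and junction was found in both siNC libraries and in neither siSTAMBPL1 library. The PB transcript of siSTAMBPL1 replicate 1 at this start began 15 bases later and joined the second exon. The first exon of ENST00000388813 (57628555 to 57628828), joined to the second exon, was in 22. That transcript must have been found in both siNC libraries and cannot have been found in either siSTAMBPL1 library, given which events were listed. The first exon of ENST00000564338 (57628635 to 57628802), joined to the third exon, added 22 more. A PB transcript with it was in both siNC libraries, and in siSTAMBPL1 replicate 1 the nearest PB transcript with the same junction began 26 bases away. ENST00000562631, which has the same junction and begins 5 bases earlier, must have been found in all 4 libraries. The last 2 held the first exon of ENST00000561872 at the second RefSeq start, but that transcript cannot have been found in any library and no PB transcript had its first exon, so another transcript of those events was the one found. Of the 71 events, 44 remained in siNC only when coordinates could differ by 10 bases.

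By type, 66 of the 71 siNC events were first exons, 4 were skipped exons and 1 was an alternative 5' splice site. Of the skipped exon events, 3 concerned the second exon, after the donors 57619881, 57620136 and 57628828, and 1 concerned an exon from 57621691 to 57621845 after the donor 57620136. The single siSTAMBPL1 event was the skipping of a 104-base exon from 57656514 to 57656617. It was skipped in 2 of 15 PB transcripts of siSTAMBPL1 replicate 1 and in 1 of 9 of siSTAMBPL1 replicate 2. These shares are 13.3% (exact 95% interval 1.66 to 40.5) and 11.1% (0.281 to 48.2). The event was not listed in siNC, so no siNC transcript that skips the exon was found. In siNC, 12 of 15 and 19 of 19 PB transcripts had a known acceptor after the third exon. All of these also used 1 of the paired acceptors 18 bases apart, so they span this exon. A limit on the siNC share was not computed. A difference was not tested.

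**Figure D3:**
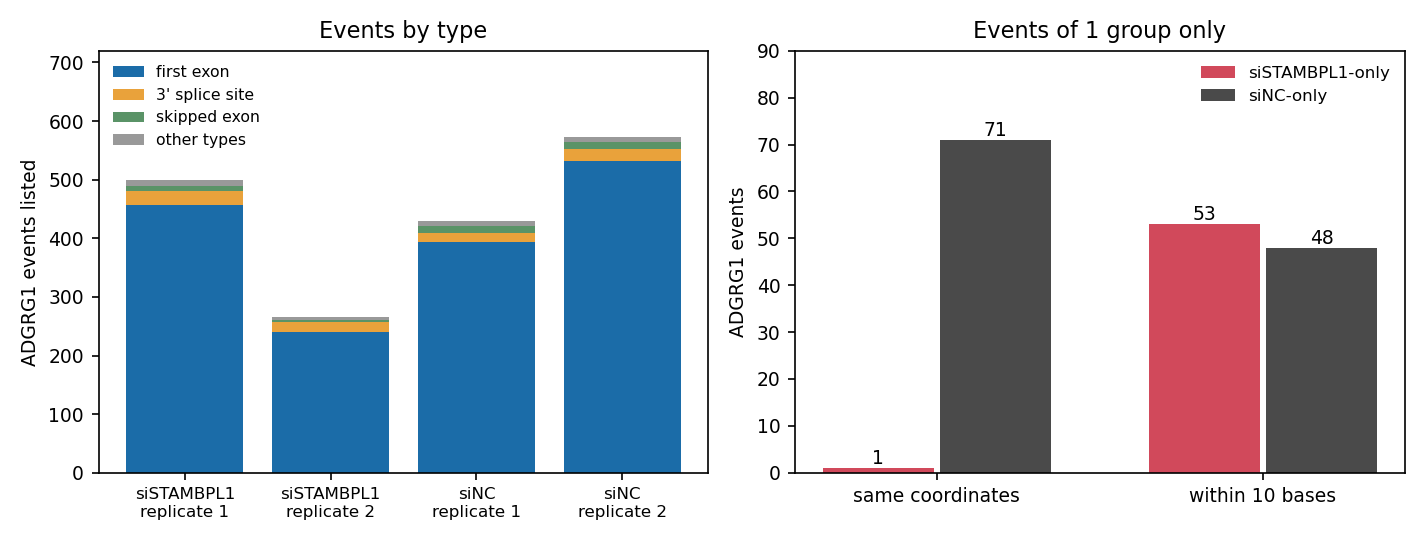
Left, ADGRG1 events listed in each library, stacked by type (other types are last exons, 5' splice sites, retained introns and mutually exclusive exons): 499 and 266 in siSTAMBPL1 and 429 and 572 in siNC. Right, ADGRG1 events in both libraries of one group and neither of the other, 1 for siSTAMBPL1 and 71 for siNC by the same coordinates, and 53 for siSTAMBPL1 and 48 for siNC with coordinates within 10 bases.

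Ensembl transcripts of ADGRG1 were classed from the same listed and missing events that chose the gene, so these numbers are only described. The lists named 79 such transcripts. Of these, 20 and 14 can have been found in the siSTAMBPL1 libraries and 23 and 33 in the siNC libraries. Those that must have been found numbered 5 and 2 in siSTAMBPL1 and 5 and 5 in siNC. ENST00000562631, whose first exon begins at the third RefSeq start and joins the third exon, must have been found in all 4. ENST00000456916, which begins at 57628507, must have been found in siSTAMBPL1 replicate 1 and cannot have been found elsewhere. Events with an Ensembl transcript in each form numbered 282, and some of them also held PB transcripts. Of these 282 events, 170 and 70 were listed in siSTAMBPL1 and 213 and 238 in siNC. The second siSTAMBPL1 library, which had the fewest PB transcripts of all genes, also had the fewest here. Both siSTAMBPL1 libraries had fewer events over all genes (119505 and 94432) than the siNC libraries (140317 and 142215). The same shares were not computed over all genes, and whether these numbers go with library size was not tested.

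Related genes were set beside ADGRG1 by their number of events. Of 10005 genes with at least 5 events, tested with limma on log2 of scaled events plus 1, 0% passed an adjusted p of 0.05 in either direction. At an unadjusted p under 0.05, 292 were higher and 419 lower in siSTAMBPL1, and the smallest adjusted p was 0.320. The fitted value for ADGRG1 was -0.03 ± 0.298 on that log2 scale (SE, n = 2 each), close to the median of 0.05 over all genes.

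Among adhesion receptors, 12 of 32 had an event in any library, and none of the 11 tested besides ADGRG1 passed in limma in either direction (1, ADGRE5, was lower at an unadjusted p under 0.05). Their median log2 difference was -0.68, with 8 below 0 and 3 above, beside 4704 below and 5301 above over all genes. ADGRD1 had 21 and 22 events in siSTAMBPL1 and 22 and 35 in siNC. ADGRE5, also called CD97 and a receptor for CD55, had 9 and 8 in siSTAMBPL1 and 22 and 20 in siNC, a log2 difference of -0.83 ± 0.263 (SE, n = 2 each; limma adjusted p 0.648). ADGRG5, on the same stretch of chromosome 16, had 5 and 5 in siSTAMBPL1 and 2 and 5 in siNC. Of the matched receptors besides ADGRG1, none had more than the 35 events of ADGRD1 in a library.

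Of 17 ligand and signalling genes, 15 had an event and none of the 14 tested passed in limma in either direction, nor at an unadjusted p under 0.05. Their median log2 difference was 0.38, with 12 above 0, beside 5301 of 10005 over all genes. Scaling by library total gives a positive value to a gene with equal numbers in every library, such as CD81 (0.37). ARHGEF1, an exchange factor that links G12/13 to RhoA, had 28 and 23 events in siSTAMBPL1 and 28 and 19 in siNC. RHOA had 5 and 5 in siSTAMBPL1 and 5 and 14 in siNC. ARRB2, an arrestin that binds active receptors, had 19 and 19 in siSTAMBPL1 and 20 and 29 in siNC. The tetraspanins CD9 and CD81, which associate with the receptor, were listed with 16 and 11 events of CD9 in siSTAMBPL1 and 11 and 11 in siNC, and with 10 events of CD81 in every library.

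Within 200000 bases on the chromosome, 7 of 18 neighbours had an event, and none of the 7 tested passed in limma in either direction or at an unadjusted p under 0.05, with a median of -0.25. KIFC3, a kinesin, had the most, with 348 and 147 in siSTAMBPL1 and 416 and 309 in siNC. DOK4, an adaptor protein, had 88 and 55 in siSTAMBPL1 and 113 and 94 in siNC. Library totals were also lower in both siSTAMBPL1 libraries.

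**Figure D4:**
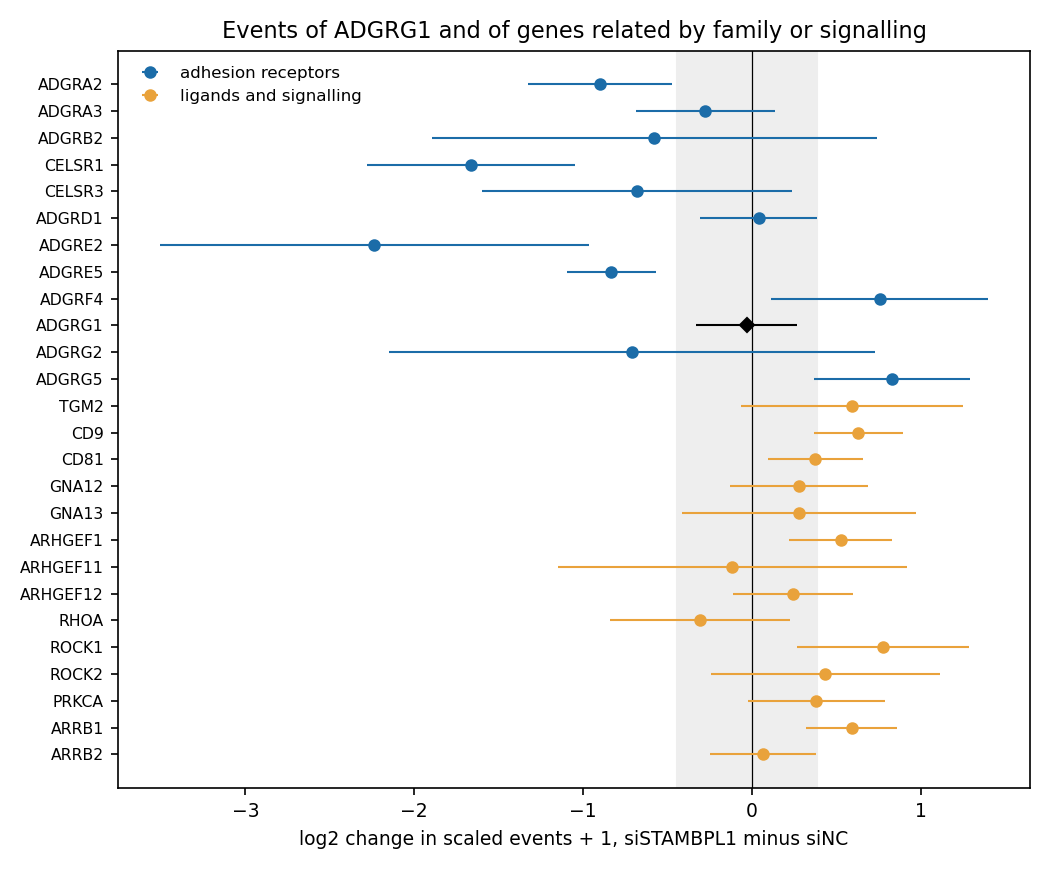
Log2 difference in scaled events plus 1 (x axis, siSTAMBPL1 minus siNC) for ADGRG1 (black diamond) and for adhesion receptors and ligand and signalling genes with at least 5 events. Points are limma estimates with their standard errors, the grey band is the middle 50% of all genes (-0.45 to 0.39), and none of the related genes passed the test.

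The 3 genes most alike in how their events were shared over the 4 libraries were PVT1, HNRNPK and GNAS, out of 9 compared with at least 883 events. PVT1, a long non-coding RNA gene, was the closest, at a Euclidean distance of 0.0347, with 399 and 228 events in siSTAMBPL1 and 324 and 402 in siNC. HNRNPK, an RNA-binding protein gene, had 340 and 218 in siSTAMBPL1 and 235 and 430 in siNC. GNAS, which encodes a G protein subunit and is known for several alternative first exons, had 466 and 375 in siSTAMBPL1 and 381 and 515 in siNC.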

How the data were processed

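Full-length cDNA of 4 libraries was sequenced on a PacBio Sequel instrument, per the labels' protocols, and placed on hg38 (submitters' processing notes). Programs for alignment, transcripts and events were not given in the sources used here. The deposited files list events without quantities. Members and lists were chosen with earlier results of these data known.

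Events were matched between libraries by every coordinate, or within 10 bases. From the events listed and missing, Ensembl transcripts were classed as ones that can, must or cannot have been found. Symbols came from positions in RefSeq's GRCh38.p14 table, for 10763 of 11931 Ensembl genes (90.2%). A listed gene without a match was counted as having no event. Events per gene, scaled by library total, were fitted as log2(value + 1) with limma 3.58.1 in R 4.3.3 (lmFit, eBayes with trend) for genes with at least 5 events, with Benjamini-Hochberg adjustment, and the fit was tested on simulated data. This scale understates changes of genes with few events. Named genes were ADGRG1, STAMBPL1, up to 8 genes a list by number of events, and the 3 genes most alike. The values of 1 chromosome neighbour are not reported here. Same-numbered libraries did not deviate together (correlation 0.0182 over 10005 genes).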

Additional observations from a re-analysis of the deposited data

How the results depend on the processing

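No test was made of ADGRG1 itself, and its values moved with the setting. The ratio of its events, siSTAMBPL1 over siNC, was 0.764. It was 1.13 when scaled by PB transcripts, 0.532 where both forms needed an Ensembl transcript, and 0.531 to 0.997 when single libraries were left out. For first exon events it was 0.754, 1.11 when scaled by PB transcripts, 0.477 where both forms needed an Ensembl transcript, and 0.521 to 0.986 with single libraries left out. The siSTAMBPL1 over siNC ratio for all events thus changed side of 1 with the scaling. The first exon share difference of -1.32 percentage points ranged from -2.01 to -0.62 with single libraries left out.

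The siSTAMBPL1-only count of 1 became 53 within 10 bases and 0 where both forms needed an Ensembl transcript. The siNC-only count of 71 became 48 within 10 bases. Leaving out single libraries, an alternative added after seeing the data, gave 2 to 330 siSTAMBPL1-only events and 71 to 424 siNC-only events, because 1 library then stands for its group. The 40 distinct first exons became 10 with starts within 100 bases as 1, 9 by donor alone, and 28 to 36 with single libraries left out.

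No gene passed the limma test of events per gene as fitted, without scaling, with upper quartile scaling, a pseudocount of 0.5 or no filter, or with any library left out (0 to 0 genes). With the replicate number as a block, 0 genes passed too, with 210 genes higher and 343 lower by p under 0.05 before adjustment. Over these alternatives the smallest adjusted p ran from 0.0619 to 0.827. With few PB transcripts of ADGRG1 in a library, small differences in first exon or splice choice were not detectable.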
